A study of Ovis aries with 2 samples.

Results

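The regions described here are sites bound by the nuclear receptor PPARG in the sheep conceptus that the authors' table marks with at least 1 promoter and with no CpG island. They were chosen by those marks alone and number 326 of the 2288 PPARG intervals (14.2%), or 43.5% (95% Wilson interval 40.0 to 47.1) of the 749 intervals with a promoter mark. The material was conceptuses flushed from Columbia and Rambouillet crossbred ewes on day 14 of pregnancy, 4 of them pooled from separate ewes, with no treatment, and it gave 1 library precipitated with a rabbit polyclonal PPARG antibody and 1 input library of unprecipitated chromatin. The chromatin holds every cell type of the conceptus together, and a library measures no expression, so no cell type can be assigned to a site. Since neither library was replicated, the values carry no biological error, and no test was made between classes of intervals, which are parts of 1 library and not replicates.

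PPARG pairs with a retinoid X receptor and binds DNA at direct repeats of a short half-site with a spacer of a single base. Ligands include fatty acids and their derivatives, and its best known target genes store, transport and burn lipid. In the placenta of the mouse it is needed for trophoblast differentiation. CpG islands are GC-rich stretches, kept free of methylation, that cover the starts of most broadly used genes, whereas promoters without an island more often belong to genes used in few tissues.

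The term promoter in the deposited table covers a wide stretch, and most of these intervals did not lie at a gene start. The median distance from the summit, the highest point of an interval, to the nearest assigned gene start was 2502 bp, with quartiles of 1270 and 4571 bp. The 423 intervals with both a promoter mark and a CpG island had a median of 182 bp. The summit was within 1 kb of a start in 64 of the 326 intervals without an island (19.6%, 15.7 to 24.3), against 346 of the 423 with one (81.8%, 77.8 to 85.2) and 17.9% of all PPARG intervals. Within 250 bp the shares were 8.90% (29 intervals) and 57.0% (241 intervals). A further 99 intervals without an island lay between 1 and 2.5 kb, 96 between 2.5 and 5 kb, and 67 (20.6%) beyond 5 kb. The promoter mark is part of how the intervals were chosen, so these distances describe the class and are not a result about PPARG.

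**Figure D1:**
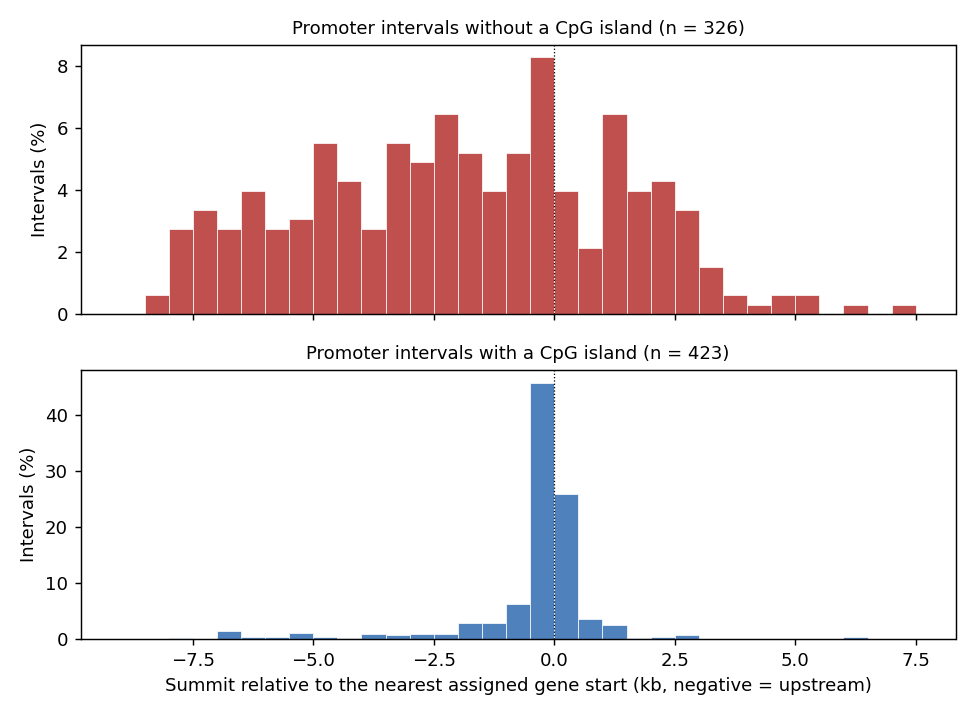
Signed distance in kb from the summit to the nearest assigned gene start (negative is upstream), as a percentage of intervals per bin, for the 326 promoter intervals without a CpG island (top) and the 423 with one (bottom), with different vertical scales. The lower panel has a sharp maximum at the start, while the upper panel spreads over several kb upstream.

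The reach of the mark can be read from intervals with a single assigned gene. All 371 of those with the summit between 7500 bp upstream and 2500 bp downstream of the start were marked with a promoter. Of 46 farther upstream 9 were marked, and of 41 between 2500 and 5000 bp downstream 8 were. None of the 618 farther downstream had a mark. The marked single-gene sites without an island that lay farthest upstream were at CLN8, a lysosomal storage disease gene, at 8387 bp, at NXNL1, a thioredoxin-like gene of the retina, at 7879 bp, and at SCAP, the escort protein that carries sterol regulatory factors out of the endoplasmic reticulum, at 7698 bp. The nearest upstream sites with neither mark nor island were at LOC101120435 at 8085 bp, SHROOM1 at 8174 bp and ZC3H4 at 8210 bp. Marked and unmarked sites thus overlapped there in the distance of the summit, and the distance of the interval edges was not computed. Inside genes, the farthest marked sites were at SLC28A1, a nucleoside transporter, at 2885 bp, HMOX2, a haem oxygenase, at 2881 bp, and MAST at 2829 bp. The nearest unmarked sites downstream of a start were at CCND2, a D-type cyclin, at 2946 bp, LOC443340 at 3202 bp and RHOB, a small GTPase, at 3230 bp.

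Seen from the gene with the nearest start, 233 intervals (71.5%) were upstream, 79 (24.2%) were in the gene and 14 were downstream of it. A single gene was assigned to 188 intervals, and 138 (42.3%) had 2 or more, up to 8 in a cluster of transfer RNA genes on chromosome 20. There were 276 intervals with 1 promoter mark, 39 with 2, 10 with 3 and 1 with 4. The 326 intervals were assigned to 485 gene names, of which 440 were neither LOC identifiers nor transfer RNA names. Of the 485 names, 398 belonged to intervals of this class alone. Of the 440, 33 had 2 or more of these intervals, a share not computed for other classes, and genes with shared intervals each counted. Of the 409 that matched a named RefSeq gene, 67 (16.4%) also had an interval of another class, against 7.19% of all named genes. An interval with both a promoter and a CpG island was assigned to 36 of the 485 names (7.42%), which is 4.97% of the 725 names of that class. Of the 304 genes with the nearest start, 5 also had a CpG island promoter interval within 1 kb of their start. The share of all genes with one at that distance was not counted. Of the 409 matched genes 25 (6.11%) had an island promoter interval, against 3.58% of all named genes.

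Height is the highest value of the authors' signal track in an interval, in units of unknown scaling. Over the 326 intervals the heights ran from 10 to 83, with quartiles of 17 and 29 and a median of 21 (95% interval of the median 21 to 23). The median was 27 (25 to 29) for promoter intervals with an island, 21 for the 586 intervals in genes without a promoter mark, 21 for the 770 intervals with no gene, and 22 for all intervals. The median thus equalled those of sites away from promoters and was below that of island promoters. At or above 31, the upper quartile of all PPARG intervals, were 70 of the 326 (21.5%, 17.4 to 26.2), against 25.5% of all PPARG intervals and 43.0% of promoter intervals with an island. Of the 100 highest PPARG intervals 5 belonged here, of the 20 highest none did, and 49 of the 100 were promoter intervals with an island. The median length was 907 bp, against 898 bp with an island and 876 bp over all intervals. None of the 326 overlapped one of the 5 input intervals, and the overlap of all PPARG intervals was not counted. With so few input intervals this says little about the class.

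The few intervals at the start itself had heights like those of island promoters. The 29 with the summit within 250 bp of a start had a median of 32, with a wide interval of 17 to 37, against 28 (26 to 33) for the 241 with an island at that distance. Of the 29, 15 (51.7%, 34.4 to 68.6) reached the upper quartile of heights, as did 113 of the 241 (46.9%, 40.7 to 53.2). At 250 bp to 1 kb the median was 22 (19 to 26, 35 intervals), at 1 to 2.5 kb 21, at 2.5 to 5 kb 21.5 and beyond 5 kb 21. Of the 262 intervals beyond 1 kb, 49 (18.7%, 14.4 to 23.9) reached the upper quartile. Beyond 250 bp the island class ran from a median of 21 at 1 to 2.5 kb (42 intervals) to 29.5 beyond 5 kb (18 intervals).

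**Figure D2:**
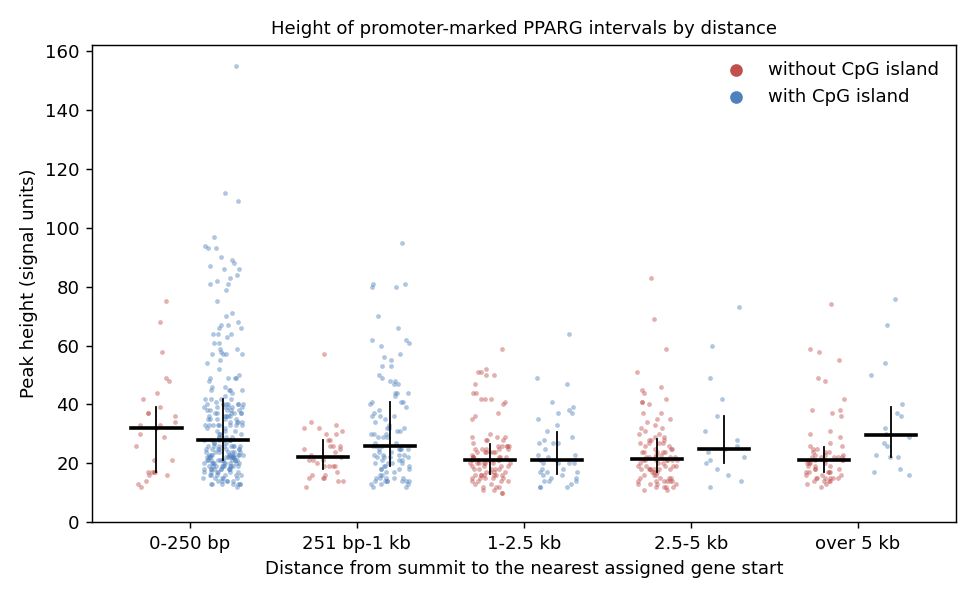
Peak height in signal units by distance to the nearest assigned gene start, for promoter-marked intervals without (red) and with (blue) a CpG island; each point is an interval, thick bars are medians and thin bars run between the quartiles. Within 250 bp the medians are 32 and 28, and the median without an island is 21 to 22 in each of the farther groups.

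Genes with a PPARG summit within 250 bp and no island included several of basic cell functions. MED1, the Mediator subunit that nuclear receptors contact, had 49 at 8 bp before its start (chr11:39434496-39435403, build Oar_v3.1, positions as the table gives them). BTBD10, a BTB domain gene, had 75 at 118 bp upstream (chr15:38810362-38811564). NDUFA7, a subunit of respiratory complex I, and RPS28, a ribosomal protein gene, shared an interval of 68 at 44 and 80 bp upstream of their starts (chr5:14649263-14650280). COQ5, a methyltransferase of coenzyme Q synthesis, had 58 at 119 bp into the gene. These 4 sites were among the 25 highest of the class.

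Several more of the start sites lay at genes of RNA handling. METTL16, an RNA methyltransferase, had 42 at 25 bp upstream, and EIF3L, a translation initiation factor subunit, had 36 at 245 bp upstream. NSUN3, which methylates a mitochondrial transfer RNA, had 33 at 105 bp upstream, MTERF, a mitochondrial transcription factor gene, had 37 at 15 bp upstream, and MRPS33, of the mitochondrial ribosome, had 16 at 15 bp upstream. These ran from low to high within the class. Division and repair genes at this distance had 29 at 87 bp upstream of SPC25, a kinetochore protein gene, 17 at 47 bp into RFC3, of the replication clamp loader, and 17 at 18 bp upstream of RAD9B, of the checkpoint clamp. The RAD9B interval also lay 145 bp upstream of the start of VPS29.

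Signalling genes with a site at the start were led by IL6R, the interleukin 6 receptor, with 48 at 57 bp upstream (chr1:103195487-103196635). PRKCI, an atypical protein kinase C that sets epithelial polarity, had 30 at 103 bp upstream. CHUK, a kinase of the NF-kappaB pathway, had 26 at 98 bp upstream and shared the site with CWF19L1, and FRK, a tyrosine kinase, had 16 at 46 bp upstream. GIT1, a scaffold for small GTPase signalling, had 32 at 208 bp into the gene. MARC1, a molybdenum enzyme of the mitochondrial outer membrane, had 44 at 243 bp upstream. MGST2, a glutathione transferase that also makes leukotriene C4, had 34 at 15 bp into the gene, and IFT46, of cilium transport, had 39 at 4 bp upstream.

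The highest interval of the class, 83, lay 2873 bp upstream of TMEM150B and downstream of the start of BRSK1, a neuronal kinase gene (chr14:59422597-59424857). At 2260 bp it was also the longest interval of the class. Among the 25 highest with a named gene, with heights from 45 to 83, the start of a named gene was within 1 kb in 6, at 1 to 5 kb in 12 and beyond 5 kb in 7. The site lay upstream of that gene in 21 of the 25.

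The other high sites included genes of lipid, metal and coenzyme handling. PPCDC, an enzyme of coenzyme A synthesis, had 69 at 4479 bp upstream (chr18:32602588-32603259). SLC39A11, a zinc transporter, had 59 at 3023 bp upstream, and SLC25A34, of the mitochondrial carrier family, had 57 at 295 bp upstream, and its interval was shared with TMEM82 and PLEKHM2. TMEM86A, which breaks down lysoplasmalogen lipids, had 58 at 5418 bp upstream. A second interval of 24 lay 31 bp away from it, at 3098 bp upstream. CRYGN, a crystallin gene, had 74 at 8051 bp upstream, in an interval that also lay 30183 bp downstream of the start of RHEB, the GTPase that activates mTOR complex 1. NXNL1 had 59.

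The rest of the 25 were of mixed function. FEM1B, a substrate receptor of a ubiquitin ligase, had 55 at 5417 bp upstream, and a second site of 15 at 7433 bp upstream. STK10, a kinase, had 52 at 1459 bp into the gene. A2M, a secreted protease inhibitor, had 51 at 1228 bp upstream, and WDR90 had 51 at 3587 bp upstream. INIP, of a complex that binds single-stranded DNA, had 50 at 2040 bp upstream. GDAP1L1 had 49 at 6078 bp upstream, and ZNF566, a zinc finger gene, had 48 at 6411 bp upstream. MRPL54, of the mitochondrial ribosome, had 47 at 1909 bp upstream. An interval of 45 lay 7675 bp into TEN1, of a telomere complex, 11490 bp into CDK3 and 4243 bp upstream of a TRNAG-CCC gene.

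Several of the 25 sites had further genes assigned. That of NDUFA7 was also assigned to KANK3, that of COQ5 to RNF10, that of PPCDC to SCAMP5 and that of TMEM86A to IGSF22. The WDR90 site was also assigned to C24H16orf13, FAM195A and a TRNAG-CCC gene, the MRPL54 site to RAX2, APBA3 and ZO3, and the TEN1 site to EVPL.

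**Figure D3:**
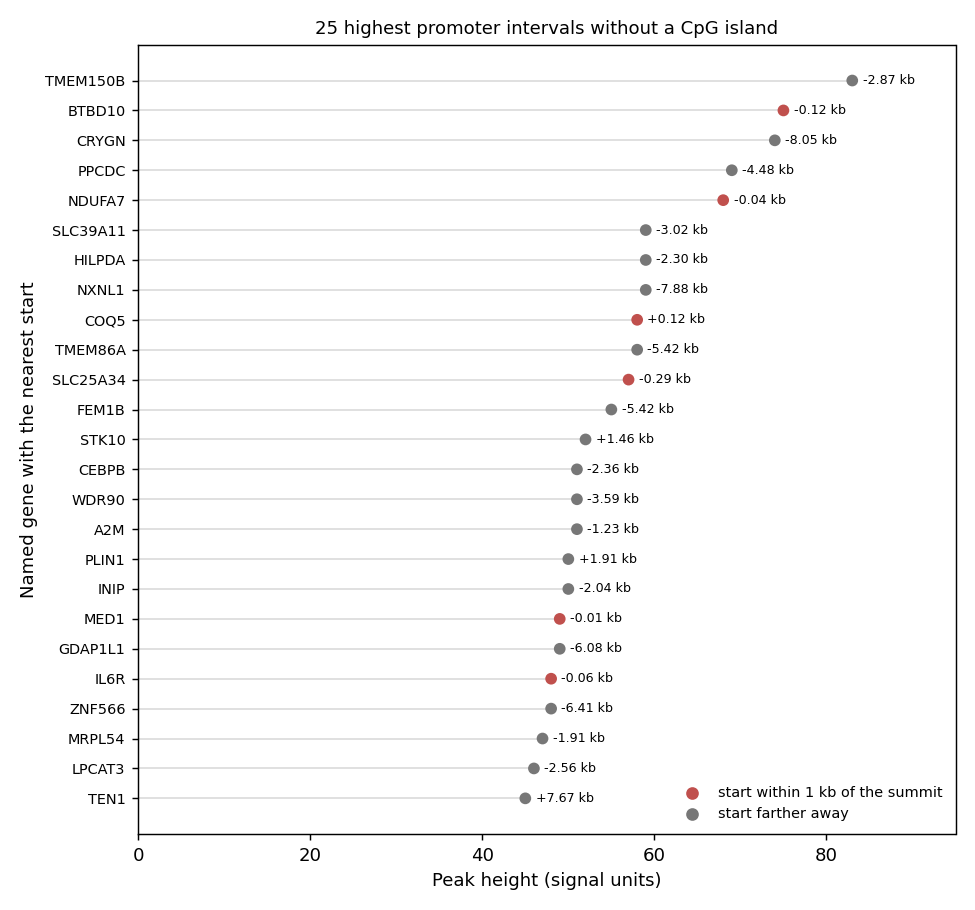
Peak height in signal units of the 25 highest promoter intervals without a CpG island that have a named gene, each labelled with the named gene of nearest start and the signed distance in kb. Heights run from 83 to 45, and 6 of the 25 (red) have that start within 1 kb.

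Genes of lipid storage and of the PPAR pathway were assigned to these intervals at levels from the top to the bottom of the class. The lists below were chosen with earlier results of these data known, and a count is set beside the 2.50% of all 16388 named genes in the RefSeq table that had such an interval. Among PPAR target genes 7 of 48 (14.6%) had one. HILPDA, whose product sits on lipid droplets and inhibits their breakdown, had 59 upstream of the gene, 2301 bp from its start (chr4:92705159-92706379). PLIN1, the droplet coat protein of fat cells, had 50 inside the gene, 1910 bp from its start (chr18:20201789-20202965). ANGPTL4, whose secreted product blocks lipoprotein lipase, had 42 inside the gene, 2471 bp from its start (chr5:14692567-14693795). Lower sites were those of HADHA and HADHB, the subunits of the mitochondrial trifunctional protein, which shared 17, and of GK, glycerol kinase, with 11 at 1854 bp upstream.

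In the fatty acid oxidation list 5 of 36 genes (13.9%) had an interval. Besides HADHA and HADHB, whose site was 3032 bp into HADHA and 3330 bp upstream of HADHB, these were ECI2, an isomerase for unsaturated fatty acids, with 15 at 718 bp into the gene, and SLC22A5, the carnitine importer, with 12 at 1733 bp into the gene. PEX11A, a peroxisome division factor, was assigned the interval of PLIN1, 16877 bp downstream of its own start, and a second of 26 at 8819 bp upstream. In the same list 7 of the 36 genes had a promoter interval with a CpG island, against 3.58% of all named genes. So did 4 of the 48 PPAR target genes, and 5 of 55 and 1 of 35 genes in the storage and synthesis lists below. Intervals outside both promoter classes were assigned to 4 of the 36 oxidation genes and 4 of the 48 target genes. They were also assigned to 8 of the 55 storage genes and 5 of the 35 synthesis genes, against 614 of all 16388 named genes. An interval at these lists was thus not particular to promoters without an island.

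Of the genes of uptake, activation and storage 5 of 55 (9.09%) had an interval. Apart from HILPDA and PLIN1, LPCAT3, which puts polyunsaturated fatty acids into phospholipids, had 46 at 2558 bp upstream (chr3:207402052-207403147), with a CpG island interval 51 bp away. PLIN3, a droplet coat protein of most tissues, had 22 at 2524 bp into the gene. CIDEB, a droplet protein, was assigned 19 at 12010 bp downstream of its start, in an interval also assigned to NOP9 and DHRS1. For fatty acid and sterol synthesis the count was 4 of 35 (11.4%), all at heights of 16 or 17. SREBF1, the sterol regulatory factor that drives lipid synthesis, had 16 at 1506 bp into the gene. FADS3 had 17 at 749 bp into the gene, and a separate interval of 17 was 6746 bp upstream of FADS1 and 7162 bp into FADS2, the desaturases of polyunsaturated fatty acids.

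Some lipid genes outside the lists were named after their values were seen, besides TMEM86A with 58 above. AGPAT6, an acyltransferase of glycerolipid synthesis, had 24 at 6449 bp upstream. DBI, the acyl-CoA binding protein, had 23 at 2765 bp upstream, and HCAR1, the lactate receptor that restrains lipolysis in fat cells, had 21 at 1940 bp upstream. ACSBG2, an acyl-CoA synthetase, had 20 at 4578 bp upstream, and SCAP had 15. SPTLC2, of the enzyme that starts sphingolipid synthesis, had 13 at 3059 bp upstream. FGF21, a hormone gene that is a PPAR target in mouse liver and fat, was assigned 21 at 6736 bp upstream, in an interval whose nearest start was that of IZUMO1 at 68 bp.

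Among receptors and cofactors of the PPAR complex 3 of 27 (11.1%) had an interval. An island promoter interval was assigned to 1 of the 27, and an interval outside both promoter classes to 4. MED1 had its site at the start, as above. CEBPB, a transcription factor that acts early in fat cell differentiation, had 51 at 2361 bp upstream (chr13:77752718-77753896). NCOA3, a coactivator of nuclear receptors, had 14 at 2586 bp upstream.

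Of trophectoderm and trophoblast markers 4 of 40 (10.0%) had an interval, of which 3 were keratins, the filament proteins of epithelia. None of the 40 had an island promoter interval, and 6 had an interval outside both promoter classes. KRT8 and KRT18, which form a pair in simple epithelia, shared 3 low intervals with heights of 12, 13 and 14. Their starts, solved from the distances, pointed away from each other and were 10020 bp apart, and the sites lay between them, at 7754, 1770 and 378 bp upstream of KRT8. KRT19 was assigned 25 at 4610 bp downstream of its start. The remaining marker was HSD11B2, which inactivates glucocorticoids and which the table calls HSD11K. It was assigned 40 at 9402 bp upstream, in an interval 3259 bp upstream of ZDHHC1. It also belonged to the steroid list, in which 3 of 24 (12.5%) had an interval. In that list 1 gene had an island promoter interval and 3 had an interval outside both promoter classes. HSD17B1, which makes estradiol, had 25 at 1613 bp upstream, and HSD17B12, which acts in fatty acid elongation, had 21 at 1014 bp into the gene.

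For adhesion, junctions and cytoskeleton 3 of 64 had an interval (4.69%). PRKCI had its site at the start, TLN1, the integrin linker talin, had 28 at 1967 bp and 25 at 3919 bp into the gene, and CGN, the tight junction protein cingulin, had 18 at 6252 bp upstream. For glucose and amino acid transport 2 of 45 had one, SLC7A6, a transporter of basic amino acids, with 27 at 3399 bp upstream, and SLC43A2, a transporter of neutral ones, with 15 at 2291 bp into the gene. For prostaglandins 2 of 30 had one. PLA2G15, a lysosomal phospholipase, was assigned the interval of SLC7A6, and PTGFRN, which inhibits a prostaglandin receptor, had 15 at 4515 bp upstream.

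For signalling ligands, receptors and mediators the count was 1 of 70 (1.43%), near the share of all named genes. It was ERBB2, a receptor tyrosine kinase, with 21 at 2663 bp into the gene. A second interval of 44, 30471 bp downstream of the ERBB2 start, lay 1051 bp upstream of GRB7, an adaptor of that receptor, and 4710 bp upstream of MIEN1. For neuronal synapse genes it was 1 of 39, GABRB2 with 19 at 910 bp upstream. No gene had an interval among 28 epiblast and primitive endoderm markers, 25 skeletal muscle genes, 19 interferon response genes, 19 blood and immune cell genes and 17 endometrial epithelium genes. At the 2.50% of all named genes, a list of that size would hold few or none.

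**Figure D4:**
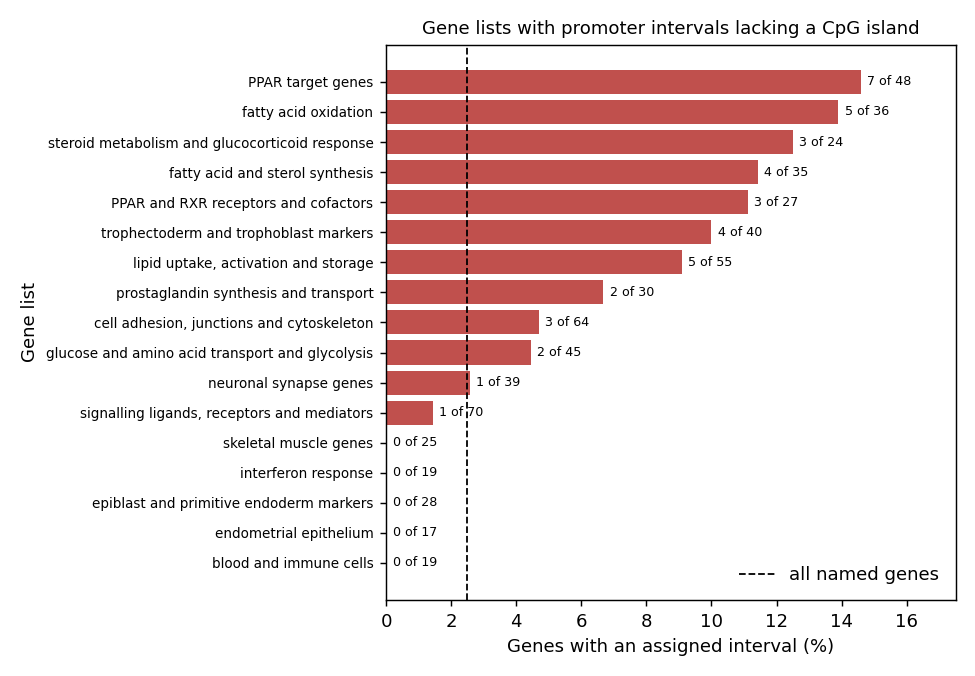
Percentage of the named genes of each list with an assigned promoter interval lacking a CpG island, with the counts at the bars and the share of all named genes as a dashed line at 2.50%. The PPAR target and fatty acid oxidation lists stand at 14.6% and 13.9%, and 5 lists have no gene.

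A few genes of inflammation and cytokine signalling outside those lists are given as examples chosen after their values were seen, with no count of all such genes. NOS2, the inducible nitric oxide synthase, had adjoining intervals of 35 and 37, at 2557 and 3613 bp upstream and 52 bp apart. IL6, the cytokine bound by the IL6R product, had 35 at 4910 bp upstream, and LITAF, a factor induced by endotoxin, had 42 at 1016 bp into the gene. IL11RA was assigned 42 at 8368 bp upstream, in an interval 1268 bp upstream of GALT, an enzyme of galactose use. JAK3, a cytokine receptor kinase, had 28 at 280 bp into the gene. MAP3K7, a kinase that links cytokine receptors to NF-kappaB, had 25 at 320 bp upstream, and NFKBIE, an inhibitor of NF-kappaB, had 18 at 1380 bp into the gene. C5AR1, a complement receptor, had 18 at 5869 bp upstream, and IL-22 had 17 at 7401 bp upstream.

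Further examples chosen in the same way act in survival, growth or metabolism. MCL1, an antiapoptotic gene, had 33 at 429 bp upstream and 20 at 2203 bp into the gene. DEDD, a death effector domain gene, had 36 at 5031 bp and 15 at 2247 bp upstream. CCND3, a D-type cyclin, had 31 at 480 bp into the gene. SMAD1, which transmits bone morphogenetic protein signals, had 28 at 2419 bp into the gene, and LDLRAD4, an inhibitor of transforming growth factor beta signalling, had 35 at 1654 bp and 12 at 630 bp upstream. PHGDH, the first enzyme of serine synthesis, had 38 at 7185 bp upstream.

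Some sites came in pairs or were assigned to genes that pointed away from each other. There were 14 pairs of these intervals closer than 5 kb, or 28 of the 326, and each pair had the same gene of nearest start. The pairs at HKDC1, a hexokinase-like gene, with 16 upstream and 25 in the gene, and at MCL1 flanked a start. Of the 33 named genes with 2 or more of these intervals, others with the gene of nearest start in common were EXD1, with 37 at 3524 bp and 17 at 1668 bp upstream, where the start of CHP1 lay 463 bp from its own, and MRPL38, of the mitochondrial ribosome, with 18 and 14, which FBF1 and TRIM65 shared. RPS21, a ribosomal protein gene, had 20 at 7332 bp and 15 at 5332 bp upstream, INPP4A, a lipid phosphatase, had 22 and 14 upstream, and RAI14 had 25 at 6363 bp upstream and 13 at 1509 bp into the gene. LSM2, of RNA processing, had 19 and 10, in intervals that VARS, HSPA1A and HSPA1L shared. For METTL16, NAGLU, SLC16A5, PLEKHM2, GBA2, CREB3, IGSF22, DCST1 and DCST2, at least one of the intervals had its nearest start at another gene. A CpG island interval lay within 5 kb of 9 of the 326. Neither for this count nor for that of the pairs was the share over all PPARG intervals computed. Starts could be solved for 100 of the assigned genes, those with several intervals in the list, which gave 26 pairs of genes assigned to a common interval. In 14 pairs the genes pointed away from each other, in 7 of these with less than 1 kb between the starts. Examples were TLN1 and CREB3, 235 bp apart, DCST1 and DCST2, 259 bp apart, and the heat shock genes HSPA1A and HSPA1L, 684 bp apart. In these examples the summits were not between the starts. They lay upstream of CREB3, DCST2 and HSPA1A and past the starts of TLN1, DCST1 and HSPA1L. For such pairs the distance cannot tell which gene a site belongs to. The share of pairs pointing away from each other was not computed over all PPARG intervals. An interval with several genes could give several of the pairs.

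Solute carriers gave 16 of the 485 names, or 4.51% of the 355 named genes of that family, against 2.50% of all named genes. In promoter intervals with an island they gave 18 of 725 names. Transfer RNA genes also gave 16 names, in 22 intervals, but only 4 of their starts lay within 1 kb of a summit. Reads from near-identical transfer RNA copies, and from the HSPA1A and HSPA1L pair, may be placed at the wrong copy. Ribosomal protein genes of cytosol and mitochondria gave 8 of the 485 names, against 21 of the 725 with an island. For ZNF genes the counts were 5 of 485 against 11 of 725.

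By chromosome, 34 of the 326 intervals (10.4%, 7.56 to 14.2) were on chromosome 11, which held 6.47% of all PPARG intervals, and 24 (7.36%, 4.997 to 10.7) on chromosome 14, which held 4.28%. Chromosome 21 held 16 (4.91%, 3.04 to 7.82) against 2.62%. Chromosome 9 held none of the 326 and 42 of all intervals, of which 3 had a promoter mark. Chromosome 11 also held 8.54% of promoter-marked intervals, chromosome 14 held 7.21% and chromosome 21 held 3.20% of them. Whether these shares follow the number of genes was not tested.

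**Figure D5:**
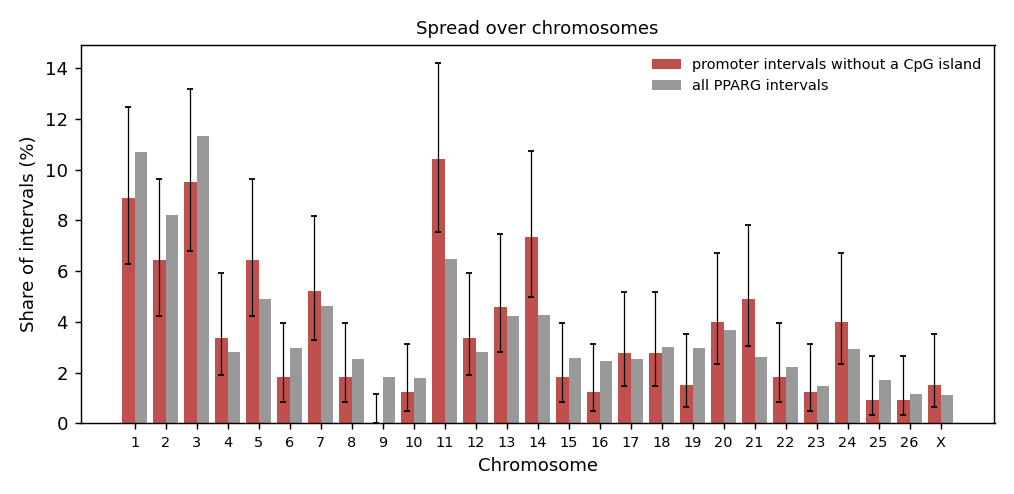
Share of intervals on each chromosome in percent, for the 326 promoter intervals without a CpG island (red, with 95% Wilson intervals for counting error) and all 2288 PPARG intervals (grey). The red bar is above the grey one on chromosomes 11, 14 and 21, at 10.4%, 7.36% and 4.91%, and by less on several others.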

How the data were processed

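The deposited table lists intervals of a PPARG ChIP-seq and an input library, made from 4 pooled conceptuses per the labels. BWA and build Oar_v3.1 are named in the submitters' processing notes. The peak caller, its threshold, the island and promoter annotation, the scaling between libraries and the read totals are not stated there, so the depth is unknown. Height and mean signal are the authors' own signal values per interval, used to describe and rank intervals of this list. The deposited counts of CpG islands, promoters and genes, and the signed distances from summit to gene start, were used as given, as were positions in bp.

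Intervals with an island count of 0 and a promoter count of 1 or more were kept. Shares carry 95% Wilson intervals and medians exact binomial intervals, which cover counting over intervals only. A gene's start was solved where 2 or more of its summits gave a single position on 1 strand, a step tested on simulated data. Gene names were matched to the RefSeq gene table of another assembly for names only. Of 440 names 409 matched, 3 of them through synonyms. Python 3.11.15, pandas 2.3.3, scipy 1.17.1 and matplotlib 3.10.9 were used.

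Named genes are those of the 25 highest intervals with a named gene, every list gene with an interval (one is not reported here), the genes with 2 or more intervals and those at the edges of the promoter mark. The members, lists and rules were chosen with earlier results of these data known, and the start sites and groups described beyond that rule were chosen after their values were seen. Promoter composition and motif searches had been planned and were not run, since no sequence was used here.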

Additional observations from a re-analysis of the deposited data

How the results depend on the processing

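With 1 library of each kind no replicate could be left out, and depth limits are unknown. No paired analysis was possible because each group has a single library. Leaving out input intervals could change no value, since none overlapped these sites. Of the 42 other alternative values, 25 stayed within 1.5 times the count or within the 95% interval of the reported value, and 17 moved. Keeping intervals at or above the median height left 162 intervals and 259 genes, with 16 list genes in place of 35 of 576. By construction this raised the median height, to 29, and the share in the upper quartile, to 43.2%. The median length was 1003 bp, and length and height had a rank correlation of 0.499 in the class. Defining a promoter as a summit within 1 kb of a start left 64 intervals and 99 genes, a median height of 25, 32.8% in the upper quartile, 7 list genes and, by construction, 100% within 1 kb. Single-gene intervals numbered 188, with 178 genes, 19 list genes and, by construction, 0% with 2 or more genes. In an alternative chosen after seeing the data, 6 list genes had their own start within 1 kb of a summit, and 26 had it between 7500 bp upstream and 2500 bp inside, within 1.5 times the reported 35. The alternatives for promoter GC content, CpG ratio and motifs were not run.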
